A study of Mus musculus with 6 samples.

Results

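The 10 genes described here encode enzymes and 1 helper protein that turn arachidonic acid into prostaglandins, thromboxane, leukotrienes and related lipids: Ptgs1, Ptgs2, Ptges, Hpgds, Tbxas1, Alox5, Alox5ap, Lta4h, Ltc4s and Alox15. They were found by gene name among the non-control probes of the arrays, where 10 of 37325 gene names and 18 of 56605 probes belonged to them. Each gene was represented by its brightest probe, and all 10 genes were among the 21862 genes tested. Of the 18 probes, 17 were well above background on both arrays of at least 1 group and were tested, and the last, a probe of Tbxas1, was above background on 1 array only. The 10 genes were taken by name alone, with no measured value in the rule.

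Total RNA from bone marrow cultures of female C57BL/6J mice aged 6 to 8 weeks was hybridized to 6 one-colour Agilent arrays, 2 per group. 6G- BM-MDSC were myeloid-derived suppressor cells grown for 4 days with 40 ng/mL of the growth factor GM-CSF from marrow that had been depleted of Ly-6G+ cells with antibody-coated magnetic beads. MDSC (conv.) were grown in the same way from whole marrow, and DCs were dendritic cells grown from whole marrow for 8 days with 20 ng/mL GM-CSF in dishes without tissue culture treatment. All groups therefore came from wild-type marrow exposed to GM-CSF, and DCs differed from both MDSC groups in dose, time and dish at once. Each culture was a mixture of cell types, so that fewer cells of a type and less RNA per cell cannot be told apart. The labels do not say whether the 2 replicates were separate animals or cultures. Each p-value therefore reflects how far these 6 arrays scattered, moderated by the scatter of all genes tested, and not a known scatter between animals.

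Arachidonic acid is released from membranes by phospholipase A2 and then follows 1 of several routes. Cyclooxygenases convert it to prostaglandin H2, which terminal synthases turn into prostaglandin E2, prostaglandin D2 or thromboxane A2, whereas 5-lipoxygenase, helped by its membrane partner FLAP, makes leukotriene A4, the source of leukotriene B4 and of the cysteinyl leukotrienes. In myeloid cells, prostaglandin E2 is known as a mediator that restrains T cells, leukotriene B4 attracts neutrophils, and products of 12/15-lipoxygenase take part in the resolution of inflammation.

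Levels are given below as log2 of the processed intensity minus the 75th percentile of the same array, so that 0 is the level of that percentile and a difference of 1 is a doubling of the signal. Levels of different probes are not comparable with each other. The percentile lay between 560.2 and 633.3 intensity units, 55.6% to 59.9% of probes were well above background on an array, and replicate arrays correlated with r of 0.995 to 0.996 across genes, which are not independent replicates. All arrays lay on 1 slide, with both MDSC groups in row 1 and DCs in row 2, so that row and the difference from DCs cannot be told apart. Ly6g, which marks the cells removed before culture, was 1.71 and 1.86 in 6G- BM-MDSC, 1.95 and 1.96 in MDSC (conv.), and -1.94 and -2.19 in DCs. Of 12 neutrophil markers 11 were higher, and of 10 dendritic cell markers 9 were lower, in either MDSC group than in DCs. Between both MDSC groups 0 marker genes of any list were called, against 0.0137% of all genes. This count therefore does not show that their composition was equal. Differences of 6G- BM-MDSC from MDSC (conv.) were negative for 11 neutrophil markers and positive for 1, between -0.71 (Cxcr2) and 0.36. For monocyte markers 2 were positive and 3 negative, with Cx3cr1 highest at 1.38. The arrays of both groups did not overlap for Cxcr2 or Cx3cr1. The summed level of the dendritic cell markers, on a linear scale in units of the 75th percentile, was 695 to 764 in the MDSC arrays, against 1168 and 1188 in DCs. Such sums, here and below, weigh bright probes most and do not measure cell content. In the MDSC arrays Cd74 lay at 8.07 to 8.15 and Zbtb46 at -0.82 to -0.54.

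The sequences shown here belong to the genes with the largest differences between groups and to Ptges, whose probes disagreed. The Alox15 probe spans chr11:70159115-70159339 (mm9, minus strand), 225 bases of genome for 60 bases of probe, and the Ptges probe A_55_P1974189 lies at chr2:30748214-30748273 (mm9, minus strand). The promoters are the 250 bases before the transcription start in RefSeq (GRCm38.p6), at chr1:150099781-150100030 (plus strand) for Ptgs2, chr2:30903298-30903547 (minus strand) for Ptges and chr11:50238533-50238782 (minus strand) for Ltc4s. All are written 5′ to 3′, and capitals mark matches to the motifs named after them.
Alox15 probe: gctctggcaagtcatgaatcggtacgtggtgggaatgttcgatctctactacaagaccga
Ptges probe: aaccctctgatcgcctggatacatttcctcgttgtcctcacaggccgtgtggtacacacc
Ptgs2 promoter: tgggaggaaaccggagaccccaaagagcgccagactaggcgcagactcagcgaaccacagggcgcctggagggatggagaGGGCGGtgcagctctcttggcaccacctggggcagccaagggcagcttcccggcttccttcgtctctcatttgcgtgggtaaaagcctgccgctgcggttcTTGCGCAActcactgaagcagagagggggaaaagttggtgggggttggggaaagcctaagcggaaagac
Ptges promoter: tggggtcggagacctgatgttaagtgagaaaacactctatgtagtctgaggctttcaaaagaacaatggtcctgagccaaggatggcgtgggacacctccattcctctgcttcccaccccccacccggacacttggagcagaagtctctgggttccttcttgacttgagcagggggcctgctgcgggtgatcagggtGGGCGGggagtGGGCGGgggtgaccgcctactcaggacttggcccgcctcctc
Ltc4s promoter: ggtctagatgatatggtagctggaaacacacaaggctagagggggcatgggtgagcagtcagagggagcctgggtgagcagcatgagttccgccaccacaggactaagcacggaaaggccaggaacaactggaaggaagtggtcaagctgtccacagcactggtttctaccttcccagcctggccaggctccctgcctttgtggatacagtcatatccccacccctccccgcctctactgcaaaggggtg

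Promoters of 8 of the 10 genes were matched, and 7 motifs were searched on both strands in this window of 32851 promoters. Those motifs were the TATA box TATAAA, the GC box GGGCGG, the E-box CACGTG, the C/EBP palindrome TTGCGCAA, the cAMP response half-site TGACGT, the PU.1 site GAGGAAGT and the NF-kB site written as GGGA, any 2 bases and TTCC. The C/EBP palindrome, found in 0.164% of all promoters, was present in Ptgs2 alone among the 8, starting 69 bases before the transcription start. The GC box, found in 32.7% of all promoters, was present in Ptgs2, Ptges and Alox5, and the PU.1 site, found in 2.44%, in Ptgs1 and Hpgds. The TATA box, found in 12.4%, was present in Tbxas1, where matches on both strands overlap. The Ltc4s and Lta4h promoters held 0 matches, and the E-box (6.02% of promoters), the cAMP half-site (6.47%) and the NF-kB site (1.21%) were in 0 of the 8. These matches are letters in a window and not shown to be bound.

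In both MDSC groups Ptgs2, the inducible cyclooxygenase, was higher than in DCs, and Alox15, Ltc4s and Ptgs1 were lower. MDSC (conv.) also had higher Lta4h and lower Tbxas1 than DCs by the test. Against DCs, limma called 6 of the 10 genes in MDSC (conv.), where 29.2% of all genes were called, and 4 in 6G- BM-MDSC, where 32.8% were. By direction, the calls in 6G- BM-MDSC were 1 up and 3 down, against 15% and 17.8% of all genes, and 2 were higher and 4 lower in MDSC (conv.), against 13.4% and 15.8%. The arrays did not overlap with those of DCs for 10 of the 10 genes in 6G- BM-MDSC and for 9 in MDSC (conv.), against 72.8% and 71.2% of all genes. Between 6G- BM-MDSC and MDSC (conv.), 0 of the 10 genes were called, against 0.0137% of all genes. The 2 comparisons with DCs share the DC arrays and are given side by side for this reason.

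**Figure D1:**
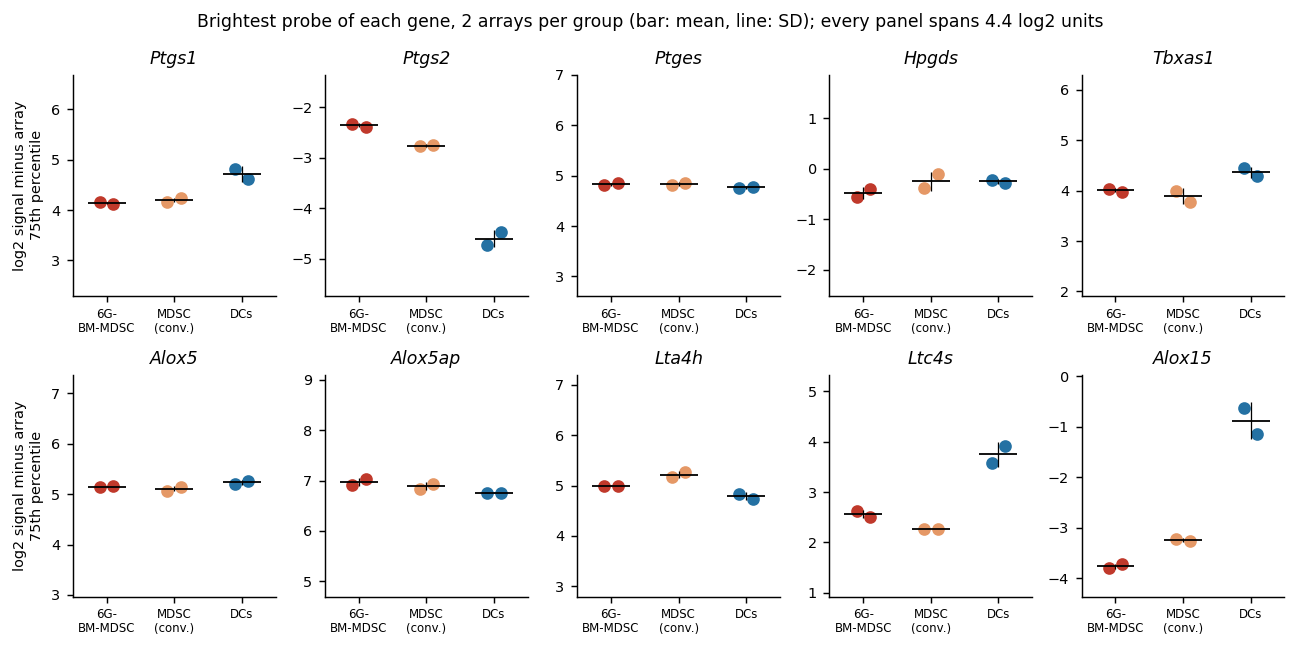
Level of the brightest probe of each gene on each array, in log2 units relative to the 75th percentile, for 6G- BM-MDSC, MDSC (conv.) and DCs. Points are arrays, bars are group means and vertical lines are the SD (n = 2), and every panel spans the same number of log2 units, so that Ptgs2, Ltc4s and Alox15 stand out while Alox5 and Ptges lie flat.

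Among the cyclooxygenases, Ptgs2 had levels of -2.33 and -2.38 in 6G- BM-MDSC, -2.78 and -2.74 in MDSC (conv.), and -4.73 and -4.48 in DCs. The 3 groups did not overlap, and DCs were lowest. The signal was dim throughout, at 124 and 108 intensity units in 6G- BM-MDSC, 92.5 and 94.3 in MDSC (conv.), and 23.1 and 25.4 in DCs, where it lay close to the lowest level called well above background on those arrays (-4.80 and -4.82). Ptgs2 was 4.76-fold higher in 6G- BM-MDSC than in DCs (log2 difference 2.25, SE 0.10, adjusted p = 4.27e-04) and 3.60-fold higher in MDSC (conv.) than in DCs (1.85, SE 0.10, adjusted p = 7.13e-04). With normexp background correction these differences shrank to 1.02 and 0.71, and both calls held (adjusted p = 9.95e-05 and 4.92e-04). Ptgs1, the constitutive cyclooxygenase, went the other way, with levels of 4.16 and 4.12 in 6G- BM-MDSC, 4.17 and 4.23 in MDSC (conv.), and 4.82 and 4.61 in DCs. All 4 MDSC arrays lay below both DC arrays. The difference from DCs was -0.57 (SE 0.10, adjusted p = 0.0137) in 6G- BM-MDSC and -0.52 (SE 0.10, adjusted p = 0.0194) in MDSC (conv.). The call was lost without either replicate of 6G- BM-MDSC (adjusted p = 0.0548 and 0.0698), and in MDSC (conv.) without either of its replicates (adjusted p = 0.0858 and 0.083) or DCs replicate 1 (adjusted p = 0.0668). A dimmer Ptgs1 probe was lower by a similar amount, -0.40 in 6G- BM-MDSC and -0.41 in MDSC (conv.), and did not pass the test (adjusted p = 0.086 and 0.0857).

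The terminal prostanoid synthases gave a mixed picture. Tbxas1, the thromboxane synthase, had levels of 4.04 and 3.98 in 6G- BM-MDSC, 4.0 and 3.78 in MDSC (conv.), and 4.44 and 4.28 in DCs. All MDSC arrays lay below the DC arrays. The difference from DCs was -0.35 (SE 0.11, adjusted p = 0.0656) in 6G- BM-MDSC, which did not pass, and -0.47 (SE 0.11, adjusted p = 0.0332) in MDSC (conv.), which did. The call in MDSC (conv.) was lost without its replicate 2 (adjusted p = 0.133), without 6G- BM-MDSC replicate 1 or 2 (0.0664 and 0.0655), without DCs replicate 1 or 2 (0.13 and 0.0712), and with only the arrays of both groups (0.0609). A dimmer Tbxas1 probe differed from DCs by -0.27 (adjusted p = 0.0565) in 6G- BM-MDSC and by -0.34 (adjusted p = 0.0332) in MDSC (conv.).

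Hpgds, the hematopoietic prostaglandin D2 synthase, had levels of -0.57 and -0.40 in 6G- BM-MDSC, -0.39 and -0.11 in MDSC (conv.), and -0.21 and -0.28 in DCs, and was not called. The MDSC (conv.) arrays lay on both sides of the DC arrays. A dimmer probe of the same gene was -1.97 and -1.74 in 6G- BM-MDSC, -1.45 and -1.43 in MDSC (conv.), and -1.18 and -1.37 in DCs. At this probe 6G- BM-MDSC lay below both other groups, with a difference of -0.58 (SE 0.12, adjusted p = 0.0212) from DCs and of -0.42 (SE 0.12, adjusted p = 0.372) from MDSC (conv.). With the mean of both probes, the gene was called lower in 6G- BM-MDSC than in DCs (-0.41, adjusted p = 0.0462).

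For Ptges, the inducible microsomal prostaglandin E2 synthase, the result depended on the probe. In the tests over single probes, 31.1% of all probes were called between 6G- BM-MDSC and DCs, 27.7% between MDSC (conv.) and DCs, and 0.00896% between both MDSC groups. The brightest probe, A_55_P1974193 at chr2:30744995-30745054 (mm9), gave 4.81 and 4.85 in 6G- BM-MDSC, 4.81 and 4.86 in MDSC (conv.), and 4.75 and 4.78 in DCs, with differences from DCs of 0.06 (95% interval -0.12 to 0.25) and 0.07 (-0.12 to 0.25). Of the 3 probes it lies furthest 3′, beginning 3219 bases after the beginning of A_55_P1974189 along the minus strand. The probe A_51_P312327, at chr2:30747838-30747897 and 376 bases after A_55_P1974189, gave -1.61 and -1.46 in 6G- BM-MDSC, -1.76 and -1.35 in MDSC (conv.), and -4.08 and -3.56 in DCs. All MDSC arrays were above the DC arrays here, by 2.28 (SE 0.22, adjusted p = 0.00301) in 6G- BM-MDSC and 2.26 (SE 0.22, adjusted p = 0.00325) in MDSC (conv.). The probe printed above, A_55_P1974189, gave -2.94 and -2.86 in 6G- BM-MDSC, -2.95 and -2.88 in MDSC (conv.), and -4.76 and -4.74 in DCs, where it was not well above background. 6G- BM-MDSC exceeded DCs here by at least 3.62-fold and MDSC (conv.) by at least 3.57-fold. For these bounds each DC array entered at its own signal or at the dimmest detected signal of that array, whichever was higher. The probe passed the filter through the MDSC groups alone, so no p-value is given for it. With the mean of the 3 probes, Ptges was called higher than in DCs in 6G- BM-MDSC (1.40, adjusted p = 0.00173) and in MDSC (conv.) (1.39, adjusted p = 0.00185). That mean includes the undetected DC signals of A_55_P1974189. At none of the 3 probes was a difference between both MDSC groups called, and these differences lay between -0.005 and 0.03.

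**Figure D2:**
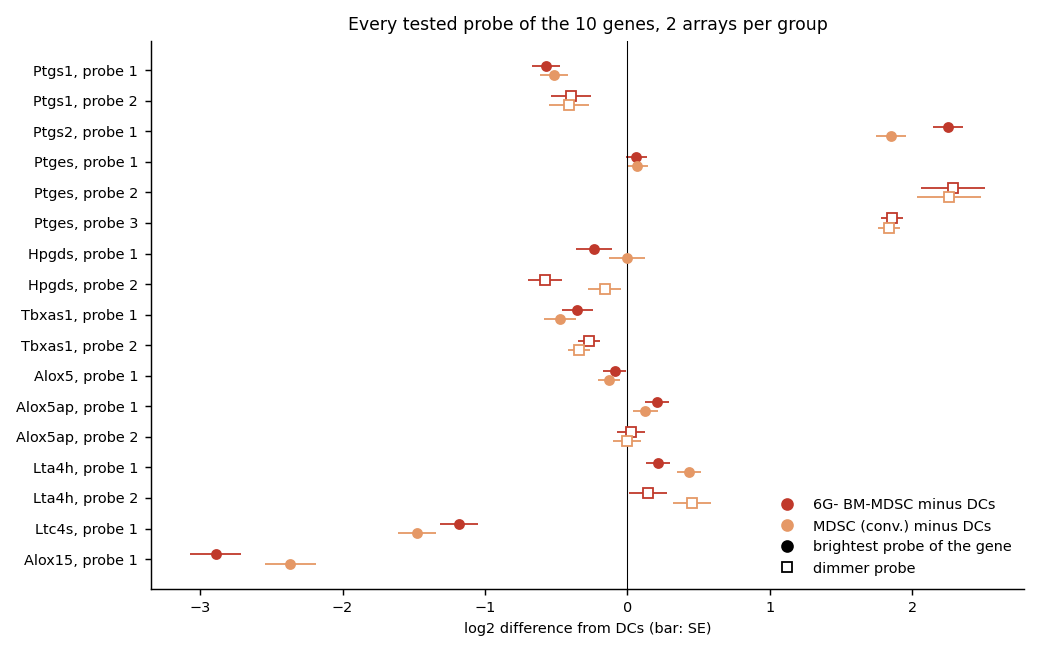
Log2 difference from DCs for each of the 17 tested probes, with 6G- BM-MDSC minus DCs in red and MDSC (conv.) minus DCs in orange, bars showing the SE of the fit across all probes. Filled circles are the brightest probe of a gene and open squares its dimmer probes, and Ptges is the gene whose probes lie far apart, at 0.06 and 0.07 for the brightest and at 1.84 to 2.28 for the other 2, of which A_55_P1974189 was not above background in DCs and gives only a lower bound.

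At the head of the leukotriene branch the 3 groups were close. Alox5, which encodes 5-lipoxygenase, had levels of 5.14 and 5.15 in 6G- BM-MDSC, 5.07 and 5.15 in MDSC (conv.), and 5.20 and 5.27 in DCs, and its differences from DCs were -0.09 (95% interval -0.28 to 0.10) and -0.13 (-0.32 to 0.06). Alox5ap, which encodes FLAP, had levels of 6.91 and 7.02 in 6G- BM-MDSC, 6.83 and 6.94 in MDSC (conv.), and 6.76 and 6.75 in DCs. The MDSC arrays were all above the DC arrays at this probe, by 0.21 (95% interval -0.01 to 0.42) in 6G- BM-MDSC and 0.13 (-0.09 to 0.34) in MDSC (conv.), and neither difference passed the test (adjusted p = 0.12 and 0.309). With normexp background correction the difference of Alox5ap in 6G- BM-MDSC passed (0.30, adjusted p = 0.029). A dimmer Alox5ap probe differed from DCs by 0.03 and -0.002.

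Of the enzymes that use leukotriene A4, Ltc4s was lower in both MDSC groups than in DCs, and Lta4h passed the test as higher in MDSC (conv.) and did not pass in 6G- BM-MDSC. Lta4h, the hydrolase that makes leukotriene B4, had levels of 5.0 and 5.0 in 6G- BM-MDSC, 5.16 and 5.27 in MDSC (conv.), and 4.84 and 4.73 in DCs. The groups did not overlap, with MDSC (conv.) highest. The difference from DCs was 0.21 (SE 0.08, adjusted p = 0.106) in 6G- BM-MDSC and 0.43 (SE 0.08, adjusted p = 0.0193) in MDSC (conv.). The call in MDSC (conv.) was lost when any 1 of the 4 arrays compared was left out (adjusted p = 0.0538 and 0.0979 without MDSC (conv.) replicates 1 and 2, 0.0515 and 0.0882 without DCs replicates 1 and 2). Its dimmer probe differed by 0.14 (adjusted p = 0.445) and 0.45 (adjusted p = 0.0615). Ltc4s, the synthase that joins leukotriene A4 to glutathione and so opens the cysteinyl branch, had levels of 2.62 and 2.5 in 6G- BM-MDSC, 2.27 and 2.26 in MDSC (conv.), and 3.57 and 3.92 in DCs. Again the groups did not overlap, with DCs highest. Ltc4s was 2.27-fold lower in 6G- BM-MDSC than in DCs (-1.18, SE 0.13, adjusted p = 0.00424) and 2.79-fold lower in MDSC (conv.) than in DCs (-1.48, SE 0.13, adjusted p = 0.00238). Basophils and mast cells are known sources of cysteinyl leukotrienes, and 8 of 9 tested markers of these cells were higher in each MDSC group than in DCs. Their summed level was 82.6 to 88.9 in the MDSC arrays, against 17.5 and 13.3 in DCs, and their part in the level of Ltc4s was not tested.

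The largest difference among the 10 genes was that of Alox15, which in mice encodes a 12/15-lipoxygenase of resident macrophages and eosinophils. Its levels were -3.80 and -3.73 in 6G- BM-MDSC, -3.22 and -3.27 in MDSC (conv.), and -0.62 and -1.13 in DCs. In intensity units, these were 44.7 and 42.2 in 6G- BM-MDSC, 68.0 and 65.4 in MDSC (conv.), and 399 and 259 in DCs. The groups did not overlap, and DCs also had the wider gap between arrays. Alox15 was 7.42-fold lower in 6G- BM-MDSC than in DCs (-2.89, SE 0.18, adjusted p = 8.74e-04) and 5.16-fold lower in MDSC (conv.) than in DCs (-2.37, SE 0.18, adjusted p = 0.00151). With normexp background correction these differences shrank to -1.95 and -1.74, and both calls held (adjusted p = 8.70e-05 and 1.45e-04). Macrophage markers were lower as well, with 6 of 7 tested genes called in 6G- BM-MDSC and 5 of 7 in MDSC (conv.), and the complement gene C1qa differed from DCs by -4.18 and -4.10. The summed level of the macrophage list was 40.8 to 43.8 in the MDSC arrays, against 105 and 116 in DCs, and Cd163 was not above background in any group. Among 9 eosinophil markers, 3 were higher and Siglecf was lower in 6G- BM-MDSC, and 4 were higher and Siglecf was lower in MDSC (conv.). The part of these cell types in the level of Alox15 was not tested.

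**Figure D3:**
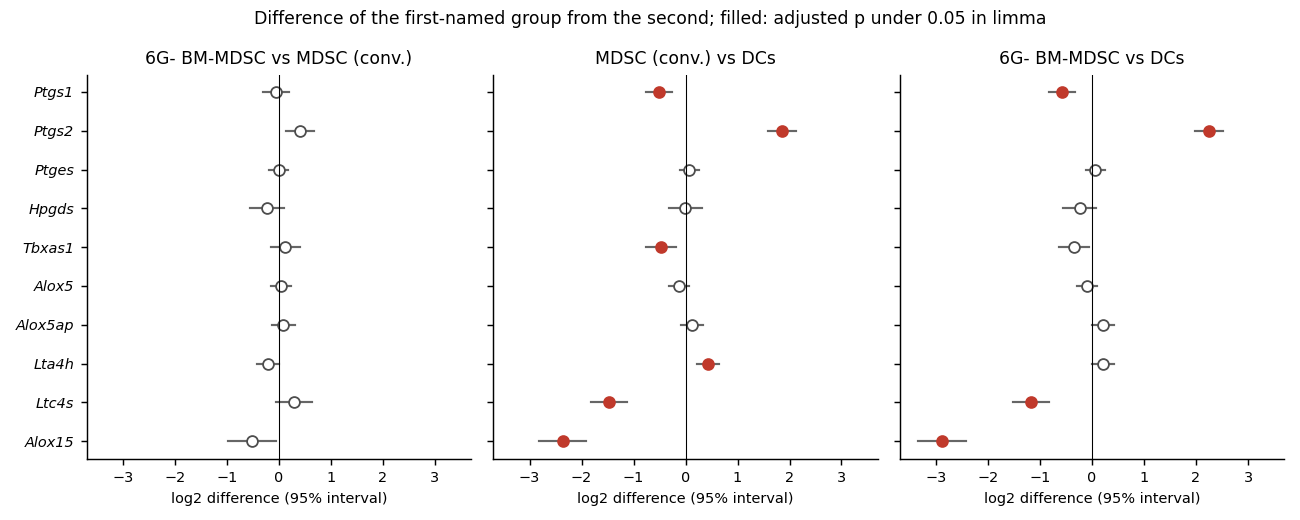
Log2 difference with its 95% interval for the 10 genes in 6G- BM-MDSC against MDSC (conv.), MDSC (conv.) against DCs and 6G- BM-MDSC against DCs. Filled points passed an adjusted p of 0.05 in limma over all genes tested, which 0, 6 and 4 genes did in these comparisons.

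Whether removal of Ly-6G+ cells before culture shifted these genes was asked by comparing both MDSC groups. The differences of 6G- BM-MDSC from MDSC (conv.) lay between -0.52 and 0.40, with a median of 0.02 over the 10 genes and of 0.0037 over all genes. Ptgs2 was 1.32-fold higher on average in 6G- BM-MDSC (0.40, SE 0.10, 95% interval 0.13 to 0.67, adjusted p = 0.347), and Ltc4s had a difference of 0.30 (-0.05 to 0.64, adjusted p = 0.51). Alox15 had a difference of -0.52 (-0.98 to -0.07, adjusted p = 0.42), Lta4h of -0.22 (-0.43 to -0.01, adjusted p = 0.454) and Hpgds of -0.23 (-0.55 to 0.09, adjusted p = 0.563). At an unadjusted p under 0.05, limma counted 3 of the 10 genes, namely Ptgs2, Alox15 and Lta4h, against 10.8% of all genes. The arrays of the groups did not overlap for 6 of the 10 genes, against 44.2% of all genes. For Ptgs1, Ptges, Alox5, Alox5ap and Tbxas1 the differences were between -0.06 and 0.12, with 95% intervals that reached no further than -0.31 and 0.40.

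The genes whose levels over the 6 arrays were most like those of the 3 most variable enzymes were found by the Euclidean distance of log2 levels centred on each gene, over 14257 genes. For Alox15 these were Cd6, Ppp1r14a and Fcrls, at distances of 0.30, 0.34 and 0.36. Cd6, a surface receptor best known from T cells, had levels of 0.35 and 0.49 in 6G- BM-MDSC, 0.70 and 0.75 in MDSC (conv.), and 3.24 and 2.90 in DCs. For Ptgs2 they were Acod1, Slfn1 and Igsf6, at distances of 0.28, 0.28 and 0.30. Acod1, which encodes the enzyme that makes itaconate, had levels of 3.12 and 3.36 in 6G- BM-MDSC, 2.78 and 2.90 in MDSC (conv.), and 0.77 and 0.94 in DCs. For Ltc4s they were Cxcl16, Ndrg4 and Irf8, at distances of 0.15, 0.17 and 0.17. Irf8, a transcription factor of monocytes and dendritic cells, had levels of 4.22 and 4.23 in 6G- BM-MDSC, 3.98 and 4.09 in MDSC (conv.), and 5.30 and 5.66 in DCs.

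Beyond the 10 enzymes, 82 other genes of the pathway were listed by role, of which 71 were tested. Between both MDSC groups 0 were called, with a median difference of -0.01. In 6G- BM-MDSC 20 were higher and 19 lower than in DCs, and in MDSC (conv.) 18 were higher and 17 lower, with median differences of -0.02 and -0.01, against medians of -0.04 and -0.03 over all genes. Both counts of higher genes include Ptgds, Ggt1 and Tbxa2r, which were not above background in DCs. Ptgds was not above background in 6G- BM-MDSC either. Alox8, also in both counts, was above background on only 1 DC array. Over all genes 15% were higher and 17.8% lower in 6G- BM-MDSC, and 13.4% higher and 15.8% lower in MDSC (conv.). The split depended on the scaling, since with median scaling 21 pathway genes were higher and 14 lower in 6G- BM-MDSC, and over all genes 3983 were higher and 2712 lower, against 3282 and 3889 with the 75th percentile. The count in 6G- BM-MDSC fell to 24 without its replicate 2, and that in MDSC (conv.) fell to 21 without its replicate 2.

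**Figure D4:**
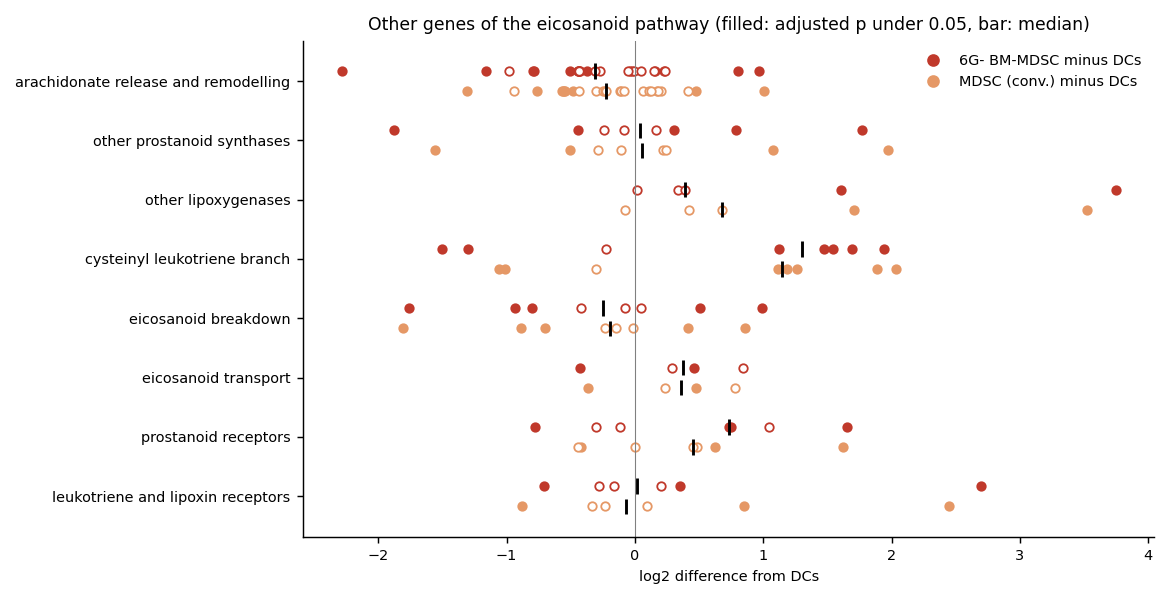
Log2 difference from DCs of the tested pathway genes other than the 10 enzymes, by role, with 6G- BM-MDSC in red and MDSC (conv.) in orange. Filled points passed an adjusted p of 0.05 in limma and black bars are medians. The point furthest to the right is Alox12 at 3.75 and 3.53, and the one furthest to the left is Fads2 at -2.28 in 6G- BM-MDSC.

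Of 25 tested genes of arachidonic acid release and remodelling, 6G- BM-MDSC had 9 lower and 2 higher than DCs, against 17.8% lower and 15% higher over all genes. The list mixes genes that release the acid with genes that return it to lipids, so these counts do not measure its supply. In MDSC (conv.) 7 were lower and 2 higher, against 15.8% and 13.4%, with median differences of -0.31 in 6G- BM-MDSC and -0.22 in MDSC (conv.). Fads2, the desaturase that opens the route from linoleic to arachidonic acid, had levels of -1.03 and -0.95 in 6G- BM-MDSC, -0.04 and -0.002 in MDSC (conv.), and 1.37 and 1.22 in DCs. The 3 groups were apart, with differences from DCs of -2.28 (adjusted p = 2.84e-04) and -1.31 (adjusted p = 0.00104), and 6G- BM-MDSC differed from MDSC (conv.) by -0.97 (adjusted p = 0.18). Acsl3, an acyl-CoA synthetase, was also lower in both (-1.16 and -0.76), as was the elongase Elovl5 (-0.79 and -0.57), whose call in MDSC (conv.) was lost without any 1 array of the 4 compared (largest adjusted p = 0.0896). Acsl1 was higher (0.97 and 1.0), and so was Lpcat2, which returns fatty acids to lysophospholipids (0.81 and 0.48), whose call in MDSC (conv.) was lost without MDSC (conv.) replicate 2 or any 1 array of 6G- BM-MDSC or DCs (largest adjusted p = 0.137). The cytosolic phospholipase A2 gene Pla2g4a, which releases arachidonic acid, had differences of 0.15 and 0.18 and was not called.

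In the cysteinyl leukotriene branch, 5 of 8 tested genes were higher and 2 lower in each MDSC group than in DCs, against 15% and 17.8% of all genes in 6G- BM-MDSC and 13.4% and 15.8% in MDSC (conv.). Ggt1, among the 5, was not above background in DCs. Mgst2, a microsomal glutathione transferase that can also form leukotriene C4, had levels of 5.04 and 4.99 in 6G- BM-MDSC, 5.16 and 5.25 in MDSC (conv.), and 3.1 and 3.55 in DCs. All MDSC arrays lay above the DC arrays, with differences of 1.69 (adjusted p = 0.00274) and 1.89 (adjusted p = 0.00208). The transferase genes Gstm4 (1.48 and 1.27) and Mgst1 (1.13 and 1.18) and the gamma-glutamyltransferase Ggt5, which converts leukotriene C4 to leukotriene D4 (1.55 and 1.12), were higher too. The calls of Mgst1 and Ggt5 in MDSC (conv.) were lost without its replicate 2 (adjusted p = 0.0536 and 0.0634). For Ggt1 the lower bounds were 1.11-fold in 6G- BM-MDSC and 1.18-fold in MDSC (conv.). The dipeptidase genes Dpep3 (-1.51 and -1.06) and Dpep2 (-1.30 and -1.01) were lower, and Dpep2 was named after its values were seen.

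Of the other lipoxygenases, Alox12, the platelet-type enzyme, had levels of -0.20 and 0.16 in 6G- BM-MDSC, -0.52 and 0.04 in MDSC (conv.), and -3.95 and -3.59 in DCs. All MDSC arrays lay far above the DC arrays, by 3.75 (adjusted p = 0.00108) and 3.53 (adjusted p = 0.00133). Of 10 platelet and megakaryocyte markers, 8 were higher in each MDSC group, with a summed level of 42.9 to 52.3 in the MDSC arrays, against 17.3 and 23.1 in DCs, and their part in Alox12 was not tested. Alox8, above background on 1 of the 2 DC arrays, had differences of 1.61 and 1.70 from DCs. This gene passed the filter through the MDSC groups alone, so its test is not used here.

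Among the remaining prostanoid synthases, Akr1c18, an aldo-keto reductase, was higher by 1.77 in 6G- BM-MDSC and 1.98 in MDSC (conv.) than in DCs (adjusted p = 0.0032 and 0.00242). Ptgis, the prostacyclin synthase, was lower by the brightest probe (-1.88 and -1.56). This call was lost in both groups without either DC array, and the sign turned in 1 alternative in each comparison (0.07 and 0.19). The fits without an array chose the brightest probe anew, so another Ptgis probe may have entered. At the probe used in the main fit, both DC arrays (-3.26 and -2.88) lay above all MDSC arrays (-5.00 to -4.56). Ptgds was above background in MDSC (conv.) only, so no fold is given for it. The carbonyl reductase Cbr1 was lower (-0.45 and -0.50), and its call was lost without 6G- BM-MDSC replicates 1 or 2 or DCs replicates 1 or 2 in 6G- BM-MDSC (largest adjusted p = 0.11), and without MDSC (conv.) replicates 1 or 2 or DCs replicate 2 in MDSC (conv.) (largest adjusted p = 0.0877). In eicosanoid breakdown, Cyp4f18, a leukotriene B4 hydroxylase, was higher (0.99 and 0.86), and the epoxide hydrolase Ephx1 was lower (-0.94 and -0.89). Cyp4f16 was lower too (-0.80 and -0.70), and its dependence on single arrays is not given here. Hpgd, which inactivates prostaglandins, had levels of -5.00 and -4.93 in 6G- BM-MDSC, -5.50 and -4.53 in MDSC (conv.), and -3.46 and -2.95 in DCs, and was above background on 1 of the 2 MDSC (conv.) arrays. It was lower in both MDSC groups (-1.76 and -1.81), and the call was lost without 6G- BM-MDSC replicate 1 or DCs replicate 2 in both comparisons, and without 6G- BM-MDSC replicate 2 in 6G- BM-MDSC (largest adjusted p = 0.0901 and 0.0907).

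Among receptors, Fpr2, which binds lipoxin A4 and formyl peptides, had levels of 7.15 and 7.24 in 6G- BM-MDSC, 6.95 and 6.93 in MDSC (conv.), and 4.38 and 4.61 in DCs, with differences from DCs of 2.70 (adjusted p = 2.84e-04) and 2.45 (adjusted p = 3.52e-04). Ltb4r1, the high-affinity leukotriene B4 receptor, was 3.49 and 3.41 in 6G- BM-MDSC, 3.95 and 3.94 in MDSC (conv.), and 3.13 and 3.06 in DCs. Its difference from DCs was 0.35 (adjusted p = 0.0243) in 6G- BM-MDSC, a call lost without any 1 of the 6 arrays (largest adjusted p = 0.105), and 0.85 (adjusted p = 0.00228) in MDSC (conv.). Cysltr1, a receptor for cysteinyl leukotrienes, was lower (-0.71 and -0.88), with the call in 6G- BM-MDSC lost without 6G- BM-MDSC replicate 2 or either DC array (largest adjusted p = 0.0645). In the list of prostanoid receptors, Pparg was higher in both (0.75 and 0.63). Ptger2 was called in 6G- BM-MDSC only (0.73), as was Ptger3 (-0.78), and Ptger4 in MDSC (conv.) only (-0.42). Of the transport genes, Slco2b1 was higher (0.46 and 0.48) and Abcc4 lower (-0.43 and -0.37). How far these calls depended on single arrays is not given here. The thromboxane receptor gene Tbxa2r was not above background in DCs and was higher by at least 2.84-fold in 6G- BM-MDSC and 2.77-fold in MDSC (conv.). It passed the filter through the MDSC groups alone, so no p-value is given for it. Fpr2 and Ltb4r1 are also genes of neutrophils, and the neutrophil markers had a summed level of 1254 to 1584 in the MDSC arrays, against 466 and 486 in DCs. The part of neutrophils in these differences was not tested.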

How the data were processed

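RNA of 2 arrays each of 6G- BM-MDSC, MDSC (conv.) and DCs was measured in 1 dye. The deposited values are processed intensities on a linear scale, from which the authors' image software, Agilent Feature Extraction (10.5.1.1 in the submitters' notes, 10.7.3.1 in the file headers), had subtracted background and spatial trends, with no scaling between arrays. In R 4.3.3 with data.table (version 1.17.8), control probes and 103 to 146 marked spots per array were left out, repeated spots were averaged, and values were expressed as log2 relative to each array's 75th percentile. No spot was saturated. The filter kept 33484 of 56605 probes, those well above background on every array of 1 or more groups, with the brightest probe for each of 21862 genes, of which 9 lacked an array value. RefSeq accessions matched 32994 probes (58.3%), and 1535 were renamed. Coordinates are those of the files (mm9), and promoters are RefSeq's.

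Differences were tested with limma 3.58.1 on all 6 arrays together, p-values were adjusted by Benjamini-Hochberg over all genes (or probes), and 0.05 was the threshold. Residual degrees of freedom were 3 and prior degrees 1.96. The procedure was run on simulated data with changes planted in DCs only, and no conclusion is drawn from that run. The number of arrays limits the precision. All 10 genes and their probes are described. Of other pathway genes, up to 4 called genes a role and comparison with the largest differences were named, of marker lists up to 4 with the largest differences, and for the 3 most variable enzymes the 3 nearest genes. Some genes were named outside this rule, such as Pla2g4a, Ly6g, Cd74 and Siglecf. The genes and lists were chosen with earlier results of these data known. Alternatives were normexp background correction (offset 50), quantile and median scaling, other probe filters, the mean of a gene's probes, a test per probe, marked spots kept, the authors' processed values, fewer arrays in the fit, an intensity-dependent prior, a block for replicate number, a t-test gene by gene and leaving out each array. The paper lists Student's t-test among its general statistics, and for the arrays it names only fold change and gene set enrichment. Figures were drawn with matplotlib 3.10.9.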

Additional observations from a re-analysis of the deposited data

How the results depend on the processing

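Ptgs2, Alox15 and Ltc4s were called against DCs in both comparisons under all 18 alternatives that used limma. Several of these reused the same values, since each of these genes has 1 probe that was above background on all 6 arrays. The authors' processed values also differed from the scanner values by at most 0.005. After Benjamini-Hochberg adjustment the t-test, which estimates the spread from 4 arrays gene by gene, called 0 of the 10 genes against DCs in either comparison. Of the other pathway genes it called 1 in 6G- BM-MDSC and 0 in MDSC (conv.). At an unadjusted p it counted 3 of the 10 genes between both MDSC groups (Ptgs2 and Ltc4s higher and Alox15 lower in 6G- BM-MDSC) and 6 of the pathway genes. The share of all genes that this t-test counts was not determined, so nothing is concluded from these counts. Ptgs1 was called in 16 of the 18 in 6G- BM-MDSC and in 15 in MDSC (conv.), and Lta4h and Tbxas1 in 14 and 12 in MDSC (conv.). In 6G- BM-MDSC against DCs, Tbxas1 passed with the block (adjusted p = 0.0443) and the intensity-dependent prior (0.0216), and Lta4h with normexp (0.0115) and that prior (0.0431). Leaving out 1 array gave 3 to 4 calls among the 10 genes in 6G- BM-MDSC and 3 to 5 in MDSC (conv.), with 3 calls without MDSC (conv.) replicate 2 or DCs replicate 1, and 0 between both MDSC groups. For the other pathway genes, whose alternatives were added after seeing the data, it gave 24 to 36 calls in 6G- BM-MDSC, 21 to 31 in MDSC (conv.) and 0 to 1 between both MDSC groups, the 1 without 6G- BM-MDSC replicate 2. Between both MDSC groups, normexp called 1 pathway gene and the intensity-dependent prior 2. The replicate numbers were not shown to pair the arrays, since the deviations of same-numbered arrays correlated at 0.11 for both MDSC groups, 0.125 for MDSC (conv.) and DCs, and 0.04 for 6G- BM-MDSC and DCs. With the replicate number as a block, 5 of the 10 genes were called in 6G- BM-MDSC, 6 in MDSC (conv.) and 0 between both MDSC groups.

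Among the 10 genes, the differences whose sign turned were ones that were not called. For Ptges between both MDSC groups they became 0.0422 with normexp, 0.059 with median scaling, 0.0138 with the mean of the probes, 0.0203 without MDSC (conv.) replicate 2 (-0.0304 without replicate 1) and 0.0177 without 6G- BM-MDSC replicate 1. For Alox5 they became 0.0123 with normexp and 0.0076 with median scaling in 6G- BM-MDSC against DCs, and -0.0023 without MDSC (conv.) replicate 1 (0.0769 without replicate 2) between both MDSC groups. Ptgs1 between both MDSC groups became 0.0061 with median scaling, and Hpgds in MDSC (conv.) against DCs 0.0321 with median scaling, 0.1356 without MDSC (conv.) replicate 1 (-0.1404 without replicate 2) and 0.0315 without DCs replicate 1. The cause was not tested. Median scaling also moved the calls over all genes in 6G- BM-MDSC against DCs to 3983 higher and 2712 lower, against 3282 and 3889 with the 75th percentile. Signal over background limits Ptgs2, Alox15, Hpgd and Ggt1, which are dim in 1 or more groups, and 2 arrays per group limit every comparison.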
